A study of Mus musculus with 35 samples.

Results

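The comparison described here sets the hair follicle bulge cells of mouse tail skin against the label-retaining cells of the tail basal layer, 2 populations of the same tissue that were chosen from the library titles. It takes in 6 of the 35 libraries of the series, 3 of bulge cells and 3 of label-retaining basal cells. Cells came from C57BL/6J mice 2 months of age of the genotype K5-tTA/pTRE H2B-GFP, and all mice received doxycycline in the chow for 2 weeks. In these mice the keratin 5 promoter drives a transactivator that switches on a GFP-tagged histone, doxycycline shuts it off, and the label is diluted at each division. Bulge libraries hold the sorted cells that the labels call hair follicle stem cells. LRC libraries hold basal cells that kept the label, called slow-cycling epidermal stem cells, and the 3 nLRC libraries of the tail, basal cells that had lost it, are given where they place a value. Since only cells with an active keratin 5 promoter make the fusion, other cell types are unlabelled. Antibodies and gates of the sort are not given in the sources used, and a surface protein used to collect a population cannot be told apart from one that differs between the populations. The labels do not tie the libraries to mice. By their sex-linked reads, given below, no group was drawn from a single mouse, but whether each library is a separate animal is not given. The p-values set differences against the spread between libraries within groups, estimated over all 9 tail libraries, and not against a spread between known animals.

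The bulge is the part of the outer root sheath that holds the stem cells of the hair follicle through its resting phase. Its cells are known for the surface protein CD34, keratin 15, the transcription factors SOX9, LHX2 and TCF7L1, and a low level of Wnt signalling kept down by secreted inhibitors. The basal layer of the interfollicular epidermis holds its own dividing cells, which feed the spinous and granular layers above, and in tail skin it forms scales between rows of follicles. In tail epidermis, cells with few and cells with many divisions lie in different parts of that scale pattern.

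The 9 tail libraries held 8421582 (bulge library 3) to 14093720 (LRC library 1) reads in genes. Features that take ribosomal RNA-like reads held 28.9, 32.4 and 44.1% of reads in the bulge libraries and 23.9, 22.8 and 30.1% in the LRC libraries. The median share of intron reads over 4724 genes was 20.6, 22.6 and 31.7% in the bulge libraries and 22.6, 33.1 and 31.2% in the LRC libraries. Genes with a read numbered 21073, 20293 and 21241 in the bulge libraries and 20578, 27652 and 23500 in the LRC libraries. The part of these differences in the results was not tested, beyond a fit without bulge library 3 and LRC library 2 together, chosen after seeing the data, which called 2274 genes. In every group the library numbered 2 held Xist reads and almost no reads of Y-linked genes, and those numbered 1 and 3 the reverse, so both sexes stand in the same proportion in each group.

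Of 14993 genes tested, 2867 (19.1%) differed between bulge and LRC libraries, 1518 (10.1%) higher and 1349 (9.0%) lower in bulge. A gene was called at an adjusted p under 0.05 in edgeR's quasi-likelihood test with Benjamini-Hochberg adjustment over all genes tested, and all adjusted p-values given for single genes come from that test. Among the calls 1904 changed at least 2-fold, 1007 up and 897 down, and in 2846 of them every bulge library lay above or below every LRC library. Over all genes tested, called or not, 5453 (36.4%) had groups that did not overlap (18.9% with bulge above and 17.5% with bulge below). Leaving out LRC library 3 left 1823 calls. The median log2 fold change of all genes was -0.01. On deposited TPM, which rest on exon reads only, limma called 2724 genes, of which 29.8% were higher against 52.9% of the calls on counts, with the median of all genes at -0.24. After rescaling the TPM 54.4% of 2923 calls were higher. For orientation, LRC against nLRC gave 690 calls (4.6%), 468 higher and 222 lower, and bulge against nLRC 3489 (23.3%), 1978 higher and 1511 lower. With the replicate number as a block, a fit chosen after seeing the data, LRC against nLRC gave 2055 calls (13.7%), 1214 higher (8.1%) and 841 lower (5.61%). Bulge against nLRC then gave 5071 calls (33.8%), 2669 higher and 2402 lower.

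**Figure D1:**
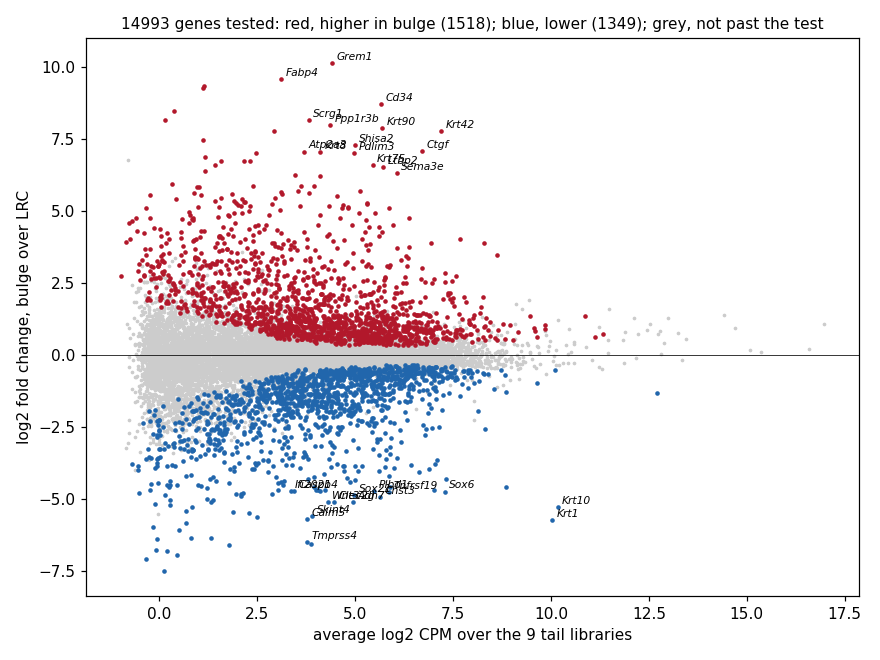
Log2 fold change of bulge over LRC libraries (vertical axis) against the average log2 CPM over the 9 tail libraries (horizontal axis), 1 point per gene tested. Red points are the 1518 genes called higher and blue points the 1349 called lower in bulge, and the 30 labelled genes are those with the largest rises and falls at an average of at least 3, where the fitted values of Grem1 and Fabp4 rest on 2 and 1 LRC reads.

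Most transcription factors of the bulge list were higher in bulge libraries. Of 17 genes on the list, 17 passed the filter on low counts; 11 of these were higher and 0 lower in bulge libraries, with a median log2 fold change of 0.76, beside the 10.1% of all genes called higher. Counts of list members called between bulge and LRC libraries, here and below, stand beside 10.1% of all genes called higher and 9.0% called lower. Levels are given as CPM, reads scaled to library size with TMM factors. Lhx2, a LIM homeodomain factor of hair follicle stem cells (GRCm38 chromosome 2, 38339281 to 38369733, plus strand), had 73.1, 68.8 and 81.7 CPM in the bulge libraries, against 1.65, 2.4 and 2.35 CPM in the LRC libraries. All 3 bulge libraries were far above all LRC libraries (log2 fold change 5.13 ± 0.20, adjusted p = 5.06e-07). Id2, an inhibitor of basic helix-loop-helix factors and a target of BMP signalling (chromosome 12, 25093799 to 25097140, minus strand), had 114, 128 and 86.5 CPM in the bulge libraries, against 5.67, 5.37 and 4.09 CPM in the LRC libraries, again without overlap (log2 fold change 4.43 ± 0.22, adjusted p = 2.02e-06). Tbx1, a T-box factor of follicle stem cells, had 109, 99 and 99.6 CPM in the bulge libraries, against 2.5, 0.918 and 2.5 CPM in the LRC libraries. It rose by a log2 fold change of 5.69 ± 0.43 (adjusted p = 1.91e-05).

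The promoters of the pair of genes with the smallest p on this list are shown so that the starts of these genes can be seen beside their levels. They are RefSeq sequences of build GRCm38.p6, 250 bases before to 50 after each start, 5′ to 3′ on the gene's strand. Lhx2 has 2 listed starts, on the plus strand at chr2:38339031-38339330 and chr2:38351058-38351357, and Id2 has 1, on the minus strand at chr12:25096043-25096342. Capitals mark matches, on either strand, to TATAAA (the TATA box), TAATTA (a LIM homeodomain core), AACAAT (a SOX core), CTTTGA (a TCF core) or GGCGCC (a GC-rich SMAD element).
Lhx2 start 1: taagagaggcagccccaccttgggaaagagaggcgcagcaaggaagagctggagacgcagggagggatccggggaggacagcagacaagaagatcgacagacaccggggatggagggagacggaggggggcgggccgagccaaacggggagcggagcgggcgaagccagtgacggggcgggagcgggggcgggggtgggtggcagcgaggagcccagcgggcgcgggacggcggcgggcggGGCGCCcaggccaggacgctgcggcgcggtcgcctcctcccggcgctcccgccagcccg
Lhx2 start 2: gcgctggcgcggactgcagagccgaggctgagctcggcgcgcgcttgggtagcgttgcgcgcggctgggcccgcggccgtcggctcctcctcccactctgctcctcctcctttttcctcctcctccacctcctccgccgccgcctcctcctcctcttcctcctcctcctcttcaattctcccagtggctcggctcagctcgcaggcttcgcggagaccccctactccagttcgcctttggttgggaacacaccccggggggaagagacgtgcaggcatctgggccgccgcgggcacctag
Id2: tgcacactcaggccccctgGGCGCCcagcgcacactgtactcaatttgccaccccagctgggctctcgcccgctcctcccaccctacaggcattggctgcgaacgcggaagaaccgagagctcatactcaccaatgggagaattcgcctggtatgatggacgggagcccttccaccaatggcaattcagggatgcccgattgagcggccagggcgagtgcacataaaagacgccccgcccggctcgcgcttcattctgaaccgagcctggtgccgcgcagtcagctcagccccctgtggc
The element GGCGCC begins at -9 in the first Lhx2 promoter and at -231 in that of Id2, and the second Lhx2 promoter holds none of the motifs searched. Of 32851 promoters, 11.9% hold GGCGCC, 13.6% TATAAA, 5.29% TAATTA, 10.7% AACAAT and 16% CTTTGA.

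The other factors differed less. Sox9, needed for the follicle stem cell lineage, had 396, 315 and 329 CPM in the bulge libraries, against 122, 63.5 and 82.3 CPM in the LRC libraries (log2 fold change 1.96 ± 0.23, adjusted p = 0.000259). Tcf7l1 (log2 fold change 1.82 ± 0.26, adjusted p = 0.000978) and Tcf7l2 (1.47 ± 0.22, adjusted p = 0.00138), coding for factors that bind Wnt target genes, rose as well. So did Gli3 (1.33 ± 0.20, adjusted p = 0.00122), a Hedgehog factor. Each of these had all bulge libraries above all LRC libraries. Vdr, Nfatc1, Runx1 and Nfib were called at log2 fold changes of 0.57 ± 0.13, 0.76 ± 0.17, 0.95 ± 0.24 and 0.63 ± 0.16. Their calls depended on single libraries. The adjusted p was 0.0572 without LRC library 2 for Vdr and 0.059 without LRC library 3 for Nfatc1. For Runx1 it was 0.0608 without bulge library 2, 0.0587 without LRC library 2 and 0.0749 without LRC library 3. For Nfib it was 0.0594 without bulge library 2, 0.0948 without LRC library 1, 0.0829 without LRC library 2 and 0.0641 without LRC library 3. Barx2 (0.44 ± 0.20), Foxc1 (0.53 ± 0.34), Hopx (-0.14 ± 0.17), Nfix (-0.02 ± 0.16), Fhl2 (-0.43 ± 0.27) and Lmx1b (-1.17 ± 1.14) did not pass the test. On log2(TPM + 1) limma called 7 members higher and 1 lower, Fhl2 (adjusted p = 0.0163), and 11 higher after rescaling the TPM, with Fhl2 again lower (adjusted p = 0.019). Between LRC and nLRC libraries 8 members were called higher in LRC and 1 lower, beside 3.12% and 1.48% of all genes. Sox9 had 17.5, 15 and 14.2 CPM in the nLRC libraries (log2 fold change of LRC over nLRC 2.52 ± 0.24, adjusted p = 0.00032) and Runx1 3.47, 8.4 and 6.98 CPM (2.70 ± 0.26, adjusted p = 0.000403). Lhx2 had 0.26, 0.0934 and 0.238 CPM there.

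Surface and matrix genes of the bulge showed the widest differences of the lists that mark it. Of 20 genes on the list, 20 passed the filter on low counts; 16 of these were higher and 1 lower in bulge libraries, with a median log2 fold change of 3.12. Cd34, the sialomucin used to identify mouse bulge cells (chromosome 1, 194938819 to 194961279, plus strand), had 117, 195 and 139 CPM in the bulge libraries, against 0.0609, 0.847 and 0.152 CPM in the LRC libraries. The lowest bulge library was far above the highest LRC library, and the fitted log2 fold change was 8.73 ± 0.54 (adjusted p = 7.05e-06). Cd34 is also a usual sort marker, and whether it was gated on is not given. Ctgf, a matricellular protein induced by YAP, had 247, 409 and 275 CPM in the bulge libraries, against 1.89, 2.54 and 2.35 CPM in the LRC libraries (log2 fold change 7.10 ± 0.26, adjusted p = 3.22e-07). Grem1, a secreted BMP antagonist, had 1021, 621 and 368 reads in the bulge libraries, against 1, 1 and 0 reads in the LRC libraries, and the pooled ratio of scaled reads was 1429.8 (95% counting interval 395 to 11815).

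**Figure D2:**
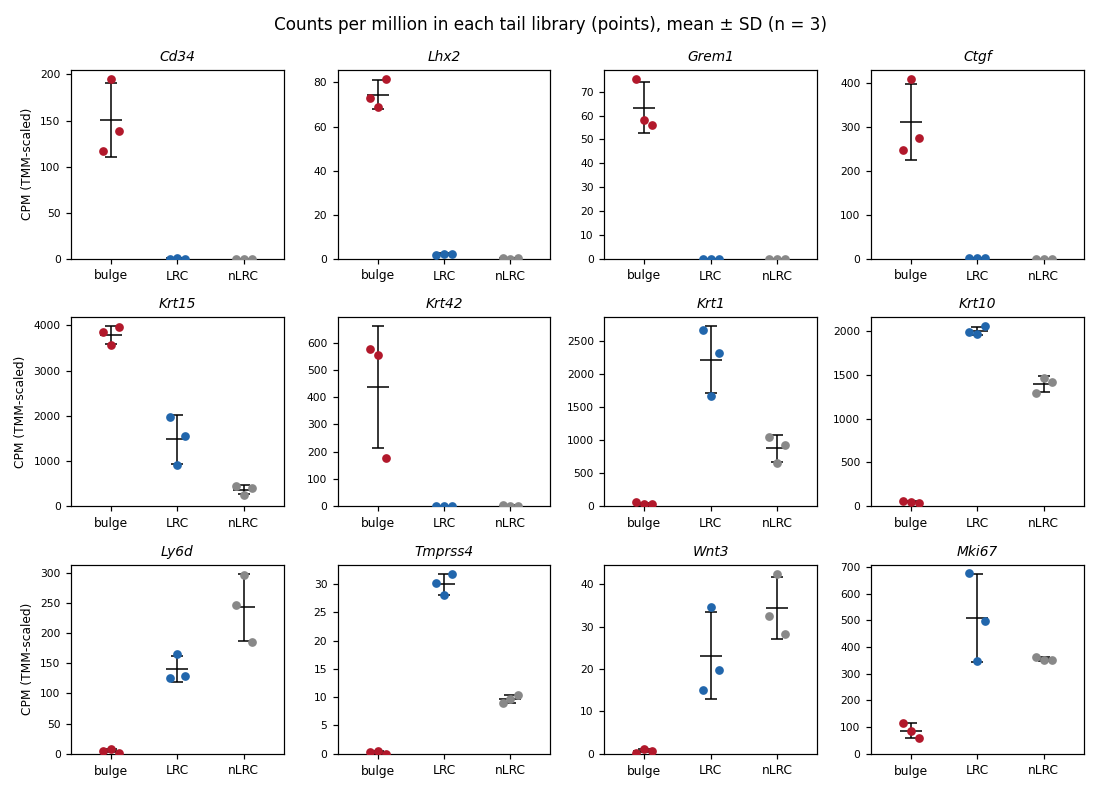
CPM (vertical axes, linear from 0) of 12 genes in the 3 bulge, 3 LRC and 3 nLRC libraries of the tail. Points are libraries, with the mean and SD over 3. Cd34, Lhx2, Grem1, Ctgf and Krt42 lie near 0 outside the bulge libraries, Krt15 is highest in bulge and intermediate in LRC, and Krt1, Krt10, Ly6d, Tmprss4 and Wnt3 are near the axis in bulge only.

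Ltbp2, a matrix protein of the latent TGF-beta binding protein family, had 138, 167 and 163 CPM in the bulge libraries, against 0.366, 2.54 and 2.2 CPM in the LRC libraries (log2 fold change 6.55 ± 0.44, adjusted p = 1.15e-05). Lgr5, the R-spondin receptor of cycling follicle stem cells, had 90.7, 70.4 and 99.9 CPM in the bulge libraries, against 3.41, 4.31 and 3.64 CPM in the LRC libraries (log2 fold change 4.52 ± 0.50, adjusted p = 0.000185). Both sets of libraries stood apart without overlap. Tnc (log2 fold change 3.38 ± 0.22, adjusted p = 7.92e-06), coding for tenascin-C, and Timp3 (2.87 ± 0.25, adjusted p = 5e-05), a metalloproteinase inhibitor, also rose. So did Angptl7 (5.66 ± 0.46, adjusted p = 3.26e-05) and Egfl6 (5.17 ± 0.54, adjusted p = 0.000143), a bulge basement membrane protein. Igfbp5 (log2 fold change 4.39 ± 0.64, adjusted p = 0.00107), which binds insulin-like growth factors, was higher from a low level. Gas1, a Hedgehog coreceptor, was higher by 1.57 ± 0.23. Krt15, the keratin of bulge cells, had 3858, 3575 and 3958 CPM in the bulge libraries, against 1981, 911 and 1545 CPM in the LRC libraries, and its difference was smaller (log2 fold change 1.36 ± 0.30, adjusted p = 0.0108). In nLRC libraries Krt15 had 450.0, 258 and 407 CPM, so that the LRC libraries stood between the other groups (LRC over nLRC 1.99 ± 0.31, adjusted p = 0.00525).

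The remaining members were smaller in effect or in level. Npnt (1.23 ± 0.30), Col17a1 (0.72 ± 0.20), Aspn (3.36 ± 0.80) and Cd200 (2.18 ± 0.63) passed the test, but not with every library left out. Npnt had an adjusted p of 0.0541 without LRC library 1 and 0.0584 without LRC library 3. Col17a1 had 0.0705 without bulge library 1, 0.059 without bulge library 2, 0.114 without LRC library 1 and 0.126 without LRC library 3. Aspn had 0.0761 without bulge library 2. Cd200 had 0.134 without bulge library 1, 0.09 without bulge library 3, 0.101 without LRC library 1, 0.0703 without LRC library 2 and 0.0794 without LRC library 3. Fst, a secreted activin and BMP antagonist, was the one member called lower (log2 fold change -1.69 ± 0.31, adjusted p = 0.00402). Postn, Ephb1 and Slit2 did not pass the test, with log2 fold changes of 0.81 ± 0.65, 0.83 ± 0.82 and -3.40 ± 1.65. Itga6, the hemidesmosome integrin by which basal keratinocytes are often sorted, had 466, 477 and 486 CPM in the bulge libraries, against 405, 482 and 409 CPM in the LRC libraries (log2 fold change 0.14 ± 0.17, adjusted p = 0.615), and the groups overlapped.

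Secreted signals attributed to the bulge were more often higher than lower there. Of 16 genes on the list, 15 passed the filter on low counts; 7 of these were higher and 2 lower in bulge libraries, with a median log2 fold change of 1.71. Fgf1, a fibroblast growth factor, had 88, 124 and 105 CPM in the bulge libraries, against 6.89, 9.82 and 5.69 CPM in the LRC libraries (log2 fold change 3.82 ± 0.26, adjusted p = 1.2e-05). Sfrp1 (log2 fold change 3.88 ± 0.23, adjusted p = 5.37e-06) and Dkk3 (2.64 ± 0.25, adjusted p = 7.52e-05), both extracellular modulators of Wnt, were higher. The ligands Bmp2 (1.78 ± 0.19, adjusted p = 0.000147) and Fgf18 (3.26 ± 0.67, adjusted p = 0.00741) were higher too. Wnt16 had 0.369, 0.187 and 0.611 CPM in the bulge libraries, against 11.1, 10.9 and 9.48 CPM in the LRC libraries (log2 fold change -4.80 ± 0.39, adjusted p = 3.13e-05), and this Wnt ligand and Wnt4 (-1.07 ± 0.10, adjusted p = 7.34e-05) were the members called lower. The list total is not given, because 1 member, the cytokine receptor gene Il31ra, holds most of its reads. On counts Il31ra had 2921, 5194 and 16949.5 CPM in the bulge libraries, against 1651, 6458 and 10578 CPM in the LRC libraries and did not pass the test (log2 fold change 0.42 ± 0.86, adjusted p = 0.786). On deposited TPM, which leave intron reads out, it had 4.43, 5.61 and 5.75 TPM in the bulge libraries, against 0, 0 and 0.06 TPM in the LRC libraries, and limma called it higher (adjusted p = 1.78e-05). The source of its reads outside exons was not tested.

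Some of the largest rises lay outside those lists. Krt42, a type I keratin also known from nail, had 576, 555 and 179 CPM in the bulge libraries, against 2.32, 1.69 and 1.82 CPM in the LRC libraries (log2 fold change 7.80 ± 0.54, adjusted p = 1.2e-05). Krt90, a type II keratin, had 101, 203 and 134 CPM in the bulge libraries, against 0.244, 0.847 and 0.758 CPM in the LRC libraries (log2 fold change 7.90 ± 0.79, adjusted p = 0.00011). Bulge library 3 had the lowest Krt42 value, though still far above every LRC library. Fabp4, a fatty acid-binding protein of fat cells and capillaries, had 452, 155 and 191 reads in the bulge libraries, against 0, 0 and 1 reads in the LRC libraries, with a pooled ratio of 1135 (95% counting interval 203 to 44898). Shisa2 (log2 fold change 7.29 ± 0.71, adjusted p = 9.02e-05), an endoplasmic reticulum protein that restrains Wnt and FGF receptors, rose strongly. Pdlim3 (log2 fold change 7.01 ± 0.71, adjusted p = 0.000112), a muscle Z-disc protein, and Sema3e (6.33 ± 0.42, adjusted p = 1.1e-05), a secreted guidance cue, did too. Further large rises were those of Scrg1 (8.15 ± 0.41, adjusted p = 2.42e-06), Atp2a3 (7.07 ± 0.47, adjusted p = 1.12e-05), a calcium pump, and Ppp1r3b (8.01 ± 0.34, adjusted p = 9.52e-07), a glycogen-targeting phosphatase subunit. The chemokine Cxcl14 rose, with 859 ± 120.5 TPM in bulge and 80.9 ± 11.6 TPM in LRC libraries (log2 fold change 3.88 ± 0.27, adjusted p = 1.24e-05), and so did the calmodulin-like Calml3, with 674 ± 140.3 TPM in bulge and 142 ± 35 TPM in LRC libraries (log2 fold change 2.57 ± 0.28, adjusted p = 0.000187).

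Several markers of endothelial cells and of fibroblasts were higher in the bulge libraries too. Of 8 genes on the list, 7 passed the filter on low counts; 6 of these were higher and 0 lower in bulge libraries, with a median log2 fold change of 3.98. A marker can pass that filter through the bulge libraries alone, and its being higher there is then largely set by the filter. In LRC library 1, 4 of the 8 markers had 0 reads. The fibroblast list below has the same limit. Summed over the 8 endothelial genes the level was 130.3, 85.4 and 161 CPM in the bulge libraries, against 14.6, 26 and 19.6 CPM in the LRC libraries. The nLRC libraries held 20.7, 25.4 and 26 CPM. On deposited TPM, which leave intron reads out, the sums were 40.84, 10.87 and 58.41 TPM in the bulge libraries. They were 0.52, 0.48 and 0.47 TPM in the LRC libraries and 0.12, 0.49 and 0.86 TPM in the nLRC libraries. Pecam1 made up most of the LRC and nLRC totals in CPM, few of which were exon reads by the TPM sums. It had 68.9, 59.4 and 75.9 CPM in the bulge libraries, against 13.8, 18.8 and 16.2 CPM in the LRC libraries. The source of its reads outside exons was not tested. Cdh5, the endothelial cadherin, had 16.2, 3.37 and 24.3 CPM in the bulge libraries, against 0, 1.13 and 0.0758 CPM in the LRC libraries. The next list is that of fibroblast markers. Of 10 genes on the list, 6 passed the filter on low counts; 4 of these were higher and 0 lower in bulge libraries, with a median log2 fold change of 3.34, with summed levels of 237, 347 and 283 CPM in the bulge libraries, against 43.2, 44.3 and 33.1 CPM in the LRC libraries. Col1a1 had 17.4, 12.5 and 7.03 CPM in the bulge libraries, against 0.183, 0.494 and 0.152 CPM in the LRC libraries (log2 fold change 5.44 ± 0.52, adjusted p = 8.56e-05). Col6a1, Col6a2 and Fbln1 were also called, while Dcn and Col3a1 did not pass the test. The other fibroblast markers failed the filter. Pdgfra had 0, 2 and 4 reads in the bulge libraries, against 3, 10 and 3 in the LRC libraries. Pdgfrb had 1, 2 and 2 reads against 1, 27 and 5, Lum 2, 0 and 1 against 0, 1 and 1, and Col1a2 55, 0 and 6 against 1, 9 and 1. The call of Kdr was lost in several fits, with an adjusted p of 0.081 without bulge library 1, 0.059 without bulge library 2, 0.0756 without bulge library 3 and 0.113 without LRC library 3. For Tie1 it was 0.057 without LRC library 3. For Fbln1 it was 0.0979 without bulge library 2, 0.0769 without bulge library 3, 0.0861 without LRC library 2 and 0.101 without LRC library 3. In bulk libraries fewer cells of a type and less RNA per cell cannot be told apart, here and in every list below. Fabp4 and the basement membrane collagens Col4a1 (5.20 ± 0.47, adjusted p = 5.77e-05) and Col4a2 (5.29 ± 0.50, adjusted p = 7.48e-05) moved in the same direction as the called markers, and the part of the other cell types in those rises was not tested.

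Keratins separated the populations by type. Per transcript length, Krt15 averaged 4946 ± 1623 TPM in bulge and 2366 ± 743 TPM in LRC libraries, Krt17 1438 ± 230.3 TPM in bulge and 169 ± 36.1 TPM in LRC libraries and Krt6a 649.6 ± 147 TPM in bulge and 201 ± 60.5 TPM in LRC libraries (mean ± SD, n = 3 each). Krt17 (log2 fold change 3.46 ± 0.40, adjusted p = 0.00025), induced in appendages and wounds, Krt6a (log2 fold change 2.01 ± 0.33, adjusted p = 0.00221), of the follicle companion layer, and Krt75 (log2 fold change 6.60 ± 0.42, adjusted p = 7.92e-06), of the same layer, all rose. Krt14, the partner of keratin 5, fell (log2 fold change -1.31 ± 0.25, adjusted p = 0.00477), with 2578 ± 172 TPM in bulge and 8387 ± 407 TPM in LRC libraries. Krt5 itself had 5303 ± 260.2 TPM in bulge and 6799 ± 633 TPM in LRC libraries and did not pass the test (log2 fold change 0.03 ± 0.25, adjusted p = 0.95). The spinous keratins Krt1, Krt10 and Krt2 lay far lower in bulge, at 40.4 ± 17.7 TPM in bulge and 2626 ± 465 TPM in LRC libraries for Krt1, 53.3 ± 8.78 TPM in bulge and 2764 ± 187 TPM in LRC libraries for Krt10 and 19.9 ± 6.11 TPM in bulge and 685 ± 274 TPM in LRC libraries for Krt2. Keratin genes are close copies of each other, and how the authors' counting placed shared reads is not given.

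**Figure D3:**
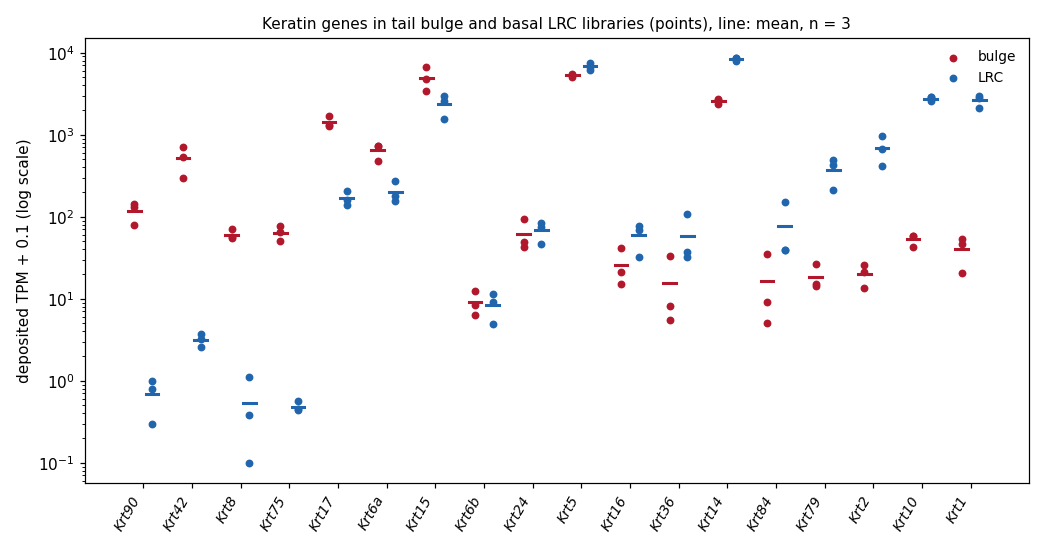
Deposited TPM + 0.1 (log axis) of the 18 keratin genes of the lists and named genes with a mean of at least 5 TPM in either group, ordered by log2 fold change. Points are the 3 bulge (red, left) and 3 LRC (blue, right) libraries and lines their means. Krt90, Krt42, Krt8 and Krt75 are highest in bulge relative to LRC and Krt1, Krt10 and Krt2 lowest, while the points of Krt6b and Krt24 overlap.

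Krt8, a simple-epithelium keratin also used to mark Merkel cells, had 45.8, 73.6 and 33.3 CPM in the bulge libraries, against 0.183, 0.141 and 0.834 CPM in the LRC libraries (log2 fold change 7.07 ± 0.56, adjusted p = 0.000107). Other Merkel cell markers, Krt18, Krt20, Atoh1 and Sox2, were at or near 0. Krt18, its partner, had 9, 1 and 6 reads in the bulge libraries, against 3, 4 and 0 in the LRC libraries, Krt20 had 0, 0 and 0 reads in the bulge libraries, against 0, 2 and 2 in the LRC libraries, and Atoh1 had 0, 0 and 0 reads in the bulge libraries, against 0, 1 and 1 in the LRC libraries. Sox2 had 0 reads in all 9 tail libraries. Of the 7 Merkel cell markers 2 were tested, Krt8 as above and Piezo2 (log2 fold change -0.55 ± 0.88, adjusted p = 0.72). Of lower follicle and companion layer genes 10 were tested, with 2 higher, Krt75 and Krt6a, and 1 lower, Gjb6 (log2 fold change -2.09 ± 0.31, adjusted p = 0.00113), a connexin. Of hair matrix and shaft genes 4 of 13 could be tested and 1 was called, Foxn1 (log2 fold change -2.39 ± 0.27, adjusted p = 0.000228), lower in bulge.

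Most genes of the spinous layer were lower in bulge libraries. Of 20 genes on the list, 20 passed the filter on low counts; 1 of these was higher and 12 lower in bulge libraries, with a median log2 fold change of -1.90, beside the 9.0% of all genes called lower. Krt1, the first keratin made on leaving the basal layer (chromosome 15, 101845426 to 101850794, minus strand), had 59, 28.8 and 37.7 CPM in the bulge libraries, against 2670.3, 1669 and 2332 CPM in the LRC libraries (log2 fold change -5.73 ± 0.36, adjusted p = 7.84e-06). Krt10, its partner (chromosome 11, 99385254 to 99389364, minus strand), had 56.1, 53.8 and 42.8 CPM in the bulge libraries, against 1986, 1969 and 2055 CPM in the LRC libraries (log2 fold change -5.30 ± 0.19, adjusted p = 3.22e-07). The highest bulge library was far under the lowest LRC library in both. Summed over the 20 genes the level was 987, 1003 and 878 CPM in the bulge libraries, against 6681, 6043 and 6541 CPM in the LRC libraries. The nLRC libraries lay near the LRC level with 4937, 5106 and 4993 CPM. Dsc1 (log2 fold change -4.01 ± 0.21, adjusted p = 2.82e-06) and Dsg1a (-1.96 ± 0.16, adjusted p = 3.81e-05), desmosomal cadherins, were lower. So were Calm4 (-4.32 ± 0.27, adjusted p = 7.09e-06) and Krtdap (-3.64 ± 0.34, adjusted p = 7.34e-05), of early differentiation. Grhl3 (log2 fold change -2.47 ± 0.21, adjusted p = 4.2e-05), a transcription factor of barrier formation, and Notch3 (-1.84 ± 0.30, adjusted p = 0.00221) were lower as well. Tgm5, a transglutaminase, was the single member called higher (log2 fold change 2.20 ± 0.61, adjusted p = 0.0307), and its adjusted p was 0.0684 without LRC library 1, 0.0645 without LRC library 2, 0.0524 without LRC library 3, 0.0514 without bulge library 2 and 0.131 without bulge library 3. The higher count was 0 without bulge library 2, LRC library 1, LRC library 2 or LRC library 3, and 2 without nLRC library 3, and 3 without nLRC library 1.

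Granular and cornified genes were fewer above the filter. Of 22 genes on the list, 13 passed the filter on low counts; 1 of these was higher and 4 lower in bulge libraries, with a median log2 fold change of -1.47. Casp14 (log2 fold change -4.71 ± 0.30, adjusted p = 7.92e-06), the caspase of cornification, and Tgm3 (-3.83 ± 0.46, adjusted p = 0.000317), a transglutaminase, were lower. So were Sprr1b (-5.00 ± 0.69, adjusted p = 0.000747) and Ivl (-2.74 ± 0.42, adjusted p = 0.00147), coding for involucrin. Spink5, an inhibitor of skin kallikreins, was the one member higher (log2 fold change 2.76 ± 0.35, adjusted p = 0.00047), with 229, 713 and 499 CPM in the bulge libraries, against 69.8, 69 and 73.9 CPM in the LRC libraries. Flg, coding for filaggrin, did not pass the test (-0.49 ± 0.82).

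The list of interfollicular basal genes split evenly. Of 18 genes on the list, 18 passed the filter on low counts; 5 of these were higher and 5 lower in bulge libraries, with a median log2 fold change of 0.00. Ly6d, a surface protein of differentiating epithelium, had 5.39, 8.33 and 2.14 CPM in the bulge libraries, against 126, 165 and 129 CPM in the LRC libraries (log2 fold change -4.67 ± 0.38, adjusted p = 3.08e-05). Ly6a (log2 fold change -3.88 ± 0.29, adjusted p = 1.6e-05), the Sca-1 antigen by which interfollicular cells are often sorted, and Igfbp2 (-4.32 ± 0.52, adjusted p = 0.000318) fell without overlap as well. Ly6e fell by less (log2 fold change -0.99 ± 0.24, adjusted p = 0.0165), and its adjusted p was 0.0553 without bulge library 2, 0.0605 without LRC library 1 and 0.0522 without LRC library 3. Thbs1, coding for thrombospondin-1, rose, with 678, 545 and 458 CPM in the bulge libraries, against 20.5, 51.8 and 29.6 CPM in the LRC libraries (log2 fold change 4.04 ± 0.46, adjusted p = 0.000228). Id3 (log2 fold change 1.92 ± 0.27, adjusted p = 0.000952) and Id1 (1.75 ± 0.29, adjusted p = 0.00253) were higher too. Ptch1 (log2 fold change 1.13 ± 0.21, adjusted p = 0.00493) and Mt1 (1.10 ± 0.23, adjusted p = 0.00909), a metallothionein, also rose. Id1 and Id3 are BMP targets and Ptch1 is a Hedgehog receptor and target. Mt2 (0.82 ± 0.26), Igfbp3 (0.52 ± 0.36), Ifitm3 (-0.79 ± 0.35), Cdh13 (-0.83 ± 0.41), Dcn (1.5 ± 0.72), Sfn (-0.43 ± 0.25), Avpi1 (-0.08 ± 0.29) and Dlx3 (0.09 ± 0.37) did not pass the test.

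Other large falls came from genes of mixed roles. Tmprss4, a membrane serine protease, had 0.369, 0.468 and 0 CPM in the bulge libraries, against 30.2, 28 and 31.7 CPM in the LRC libraries (log2 fold change -6.50 ± 0.36, adjusted p = 3.69e-06). Sox6, a SOX-family transcription factor, had 5.91, 4.77 and 9.17 CPM in the bulge libraries, against 119.9, 204 and 197 CPM in the LRC libraries (log2 fold change -4.74 ± 0.33, adjusted p = 1.2e-05), and Sox21, of the same family, fell by a log2 fold change of -4.87 ± 0.25. Adh7 (log2 fold change -5.09 ± 0.37, adjusted p = 1.51e-05), which oxidises retinol, and Chst3 (-4.92 ± 0.22, adjusted p = 1.03e-06), a chondroitin sulfotransferase, fell. So did Plbd1 (-4.73 ± 0.17, adjusted p = 3.22e-07), a lysosomal phospholipase-like protein, and Tnfrsf19 (-4.76 ± 0.29, adjusted p = 7.05e-06), a TNF receptor family member. Calm5 (log2 fold change -5.71 ± 0.66, adjusted p = 0.000268) and Clec2g (-5.12 ± 0.65, adjusted p = 0.000445), a C-type lectin, completed these falls. All bulge libraries lay under all LRC libraries in each, but the rule that named the largest falls asked for this.

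The Skint genes code for butyrophilin-like proteins, of which SKINT1 is needed for the gamma-delta T cells of mouse epidermis. Of 11 genes on the list, 9 passed the filter on low counts; 0 of these were higher and 4 lower in bulge libraries, with a median log2 fold change of -2.23. Skint4 had 0.296, 1.12 and 0.764 CPM in the bulge libraries, against 30.9, 31.1 and 41.6 CPM in the LRC libraries (log2 fold change -5.61 ± 0.39, adjusted p = 1.2e-05). Skint1 (log2 fold change -4.70 ± 0.57, adjusted p = 0.000363) and Skint3 (-3.36 ± 0.53, adjusted p = 0.00177) fell. Skint8 (log2 fold change -3.29 ± 0.74, adjusted p = 0.0114) fell too, with an adjusted p of 0.0544 without bulge library 1. Skint9 (-2.23 ± 0.78), Skint10 (-1.69 ± 0.78), Skint5 (-1.65 ± 0.99), Skint6 (-0.59 ± 0.35) and Skint11 (-1.47 ± 0.96) did not pass the test. Their summed level was 8.13, 8.61 and 11.8 CPM in the bulge libraries, against 64.6, 95.3 and 80.4 CPM in the LRC libraries. In nLRC libraries it was 17.1, 21.8 and 22.4 CPM. LRC against nLRC had 4 members higher and 0 lower, beside 3.12% and 1.48% of all genes. The Skint genes are near-identical copies in a cluster, so reads may be split among them. Antimicrobial and alarmin genes gave 4 lower and 0 higher of 8 tested, with Defb6 the clearest (log2 fold change -3.92 ± 0.60, adjusted p = 0.00145). The others, Il33, Defb1 and Tslp, were lost without single libraries. Il33 had an adjusted p of 0.0579 without bulge library 2. Defb1 had 0.0834 without bulge library 2, 0.0644 without bulge library 3, 0.0552 without LRC library 1 and 0.0593 without LRC library 3. Tslp had 0.0531 without bulge library 1, 0.0962 without bulge library 2, 0.0738 without bulge library 3, 0.0618 without LRC library 1 and 0.0683 without LRC library 2. The count was 1 without bulge library 2, and 2 without bulge library 3 or LRC library 1.

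Genes of the upper follicle, the zone above the bulge, were more often lower than higher in bulge libraries, and Krt17 was the one called higher. Of 13 genes on the list, 12 passed the filter on low counts; 1 of these was higher and 6 lower in bulge libraries, with a median log2 fold change of -1.20. Krt79, a keratin of the infundibulum, had 24.9, 18.5 and 10.5 CPM in the bulge libraries, against 386, 153 and 309 CPM in the LRC libraries (log2 fold change -3.95 ± 0.42, adjusted p = 0.000147). Cst6 (log2 fold change -2.49 ± 0.35, adjusted p = 0.000827), a cystatin, and Plet1 (-1.63 ± 0.23, adjusted p = 0.000781), a surface marker of this zone, fell. Defb6 (log2 fold change -3.92 ± 0.60, adjusted p = 0.00145), a defensin, and Atp6v1c2 (-1.37 ± 0.30, adjusted p = 0.011), a proton pump subunit, fell too. Gata6, a transcription factor of the upper follicle, was called lower as well (log2 fold change -2.68 ± 0.66, adjusted p = 0.0178), with an adjusted p of 0.0669 without LRC library 3, 0.0585 without bulge library 1 and 0.0743 without bulge library 2. Lrig1, a negative regulator of EGF receptors, had 144, 99.4 and 99.5 CPM in the bulge libraries, against 124, 85.7 and 118 CPM in the LRC libraries and did not pass the test (log2 fold change 0.06 ± 0.19, adjusted p = 0.856), nor did Lgr6 (log2 fold change -0.28 ± 0.28, adjusted p = 0.535). LRC libraries held more of this list than nLRC libraries, with 8 of 12 tested members called higher and 0 lower, beside 3.12% and 1.48% of all genes. Lrig1 had 13.6, 12.3 and 16.3 CPM in nLRC libraries (LRC over nLRC 2.96 ± 0.21, adjusted p = 0.000108) and Krt79 68.6, 38 and 47.9 CPM (2.46 ± 0.39, adjusted p = 0.00595). The part of upper follicle cells in the LRC libraries was not tested.

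**Figure D4:**
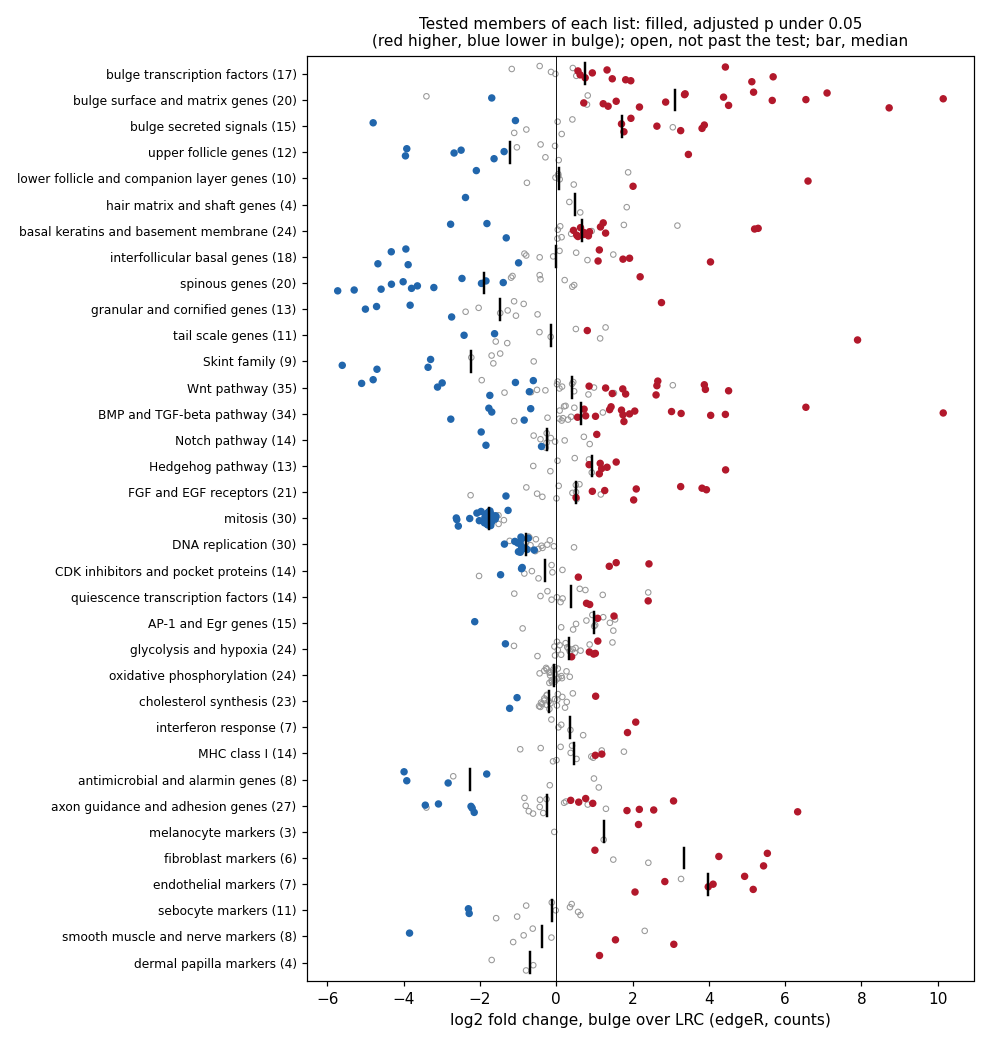
Log2 fold change of bulge over LRC (horizontal axis) of each tested member of the lists with at least 3 tested members, with the number tested in brackets. Filled points passed the test, red higher and blue lower in bulge, open points did not, and bars are medians. The median is 3.98 for endothelial markers and 3.12 for bulge surface and matrix genes, and -1.90 for spinous and -1.77 for mitosis genes. Members such as endothelial markers can pass the filter on low counts through the bulge libraries alone.

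Genes of the Wnt pathway moved in both directions. Of 42 genes on the list, 35 passed the filter on low counts; 11 of these were higher and 8 lower in bulge libraries, with a median log2 fold change of 0.42. Among ligands, Wnt3 had 0.296, 1.03 and 0.764 CPM in the bulge libraries, against 14.9, 34.6 and 19.8 CPM in the LRC libraries (log2 fold change -5.10 ± 0.46, adjusted p = 5.99e-05), and all bulge libraries were under all LRC libraries. Wnt3a (log2 fold change -2.99 ± 0.49, adjusted p = 0.0022), Wnt4 and Wnt16 were lower too. Wnt7b (0.04 ± 0.28) did not pass the test. Among receptors, Fzd2 (log2 fold change 3.91 ± 0.28, adjusted p = 1.51e-05) and Fzd3 (1.75 ± 0.19, adjusted p = 0.000171) rose. Fzd7 (log2 fold change 1.29 ± 0.18, adjusted p = 0.000696) and the coreceptor Lrp6 (0.86 ± 0.11, adjusted p = 0.000599) rose too, while Fzd10 (-3.11 ± 0.21, adjusted p = 1.15e-05) fell. Of the targets and feedback regulators, Axin2 had 6.87, 6.27 and 9.93 CPM in the bulge libraries, against 27.5, 22.4 and 26.2 CPM in the LRC libraries (log2 fold change -1.74 ± 0.26, adjusted p = 0.00141). Lef1, a nuclear effector of the pathway, was higher, with 8.5, 5.99 and 17.3 CPM in the bulge libraries, against 1.58, 1.48 and 2.05 CPM in the LRC libraries (log2 fold change 2.62 ± 0.44, adjusted p = 0.00245). Of the secreted inhibitors, Sfrp1 and Dkk3 were higher as given above, and Wif1 did not pass the test (log2 fold change 3.06 ± 0.96, adjusted p = 0.0502).

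BMP and TGF-beta genes were more often higher. Of 36 genes on the list, 34 passed the filter on low counts; 17 of these were higher and 5 lower in bulge libraries, with a median log2 fold change of 0.65. The Id genes, targets of BMP signalling, rose together, Id1, Id2 and Id3 as above and Id4 with 27.9, 48.8 and 31.9 CPM in the bulge libraries, against 2.44, 3.6 and 5.23 CPM in the LRC libraries (log2 fold change 3.27 ± 0.40, adjusted p = 0.000392). The inhibitory Smad7 (0.77 ± 0.15, adjusted p = 0.00477) and the receptor-activated Smad9 (4.05 ± 0.54, adjusted p = 0.000645) were higher. Ltbp3, which holds latent TGF-beta, was higher by 1.44 ± 0.14. Bmp7 (log2 fold change -0.84 ± 0.14, adjusted p = 0.00194) was lower. The receptor Bmpr1b (log2 fold change -2.76 ± 0.46, adjusted p = 0.00227) and the coreceptor Tgfbr3 (-1.77 ± 0.15, adjusted p = 3.59e-05) were lower too. Noggin (Nog, log2 fold change 1.22 ± 0.59, adjusted p = 0.186), Bmp4 (log2 fold change -1.10 ± 0.58, adjusted p = 0.229) and Bmpr1a (log2 fold change 0.31 ± 0.12, adjusted p = 0.105) did not pass the test. The BMP antagonist Grem1 was higher in the same libraries.

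Hedgehog genes gave 7 higher and 0 lower of 13 tested, with a median log2 fold change of 0.93. Gli1, a direct target and effector, had 8.87, 9.17 and 7.79 CPM in the bulge libraries, against 0.427, 0.353 and 0.379 CPM in the LRC libraries (log2 fold change 4.44 ± 0.38, adjusted p = 4.31e-05). The effectors Gli2 (1.19 ± 0.24) and Gli3, the coreceptors Cdon (1.15 ± 0.18, adjusted p = 0.00148) and Boc (0.86 ± 0.19, adjusted p = 0.0105), Gas1 and Ptch1 were the other calls. Smo, the signal transducer, did not pass the test (log2 fold change -0.15 ± 0.13, adjusted p = 0.473). FGF and EGF genes gave 8 higher and 1 lower of 21. Fgfr1 (log2 fold change 2.03 ± 0.24, adjusted p = 0.000327), an FGF receptor, rose with Fgf1. The feedback regulators Dusp6 (2.10 ± 0.30, adjusted p = 0.00106), Spry4 (3.94 ± 0.63, adjusted p = 0.00185) and Spry2 (1.27 ± 0.19, adjusted p = 0.0014) rose as well. Erbb3 fell (log2 fold change -1.32 ± 0.19, adjusted p = 0.000863). Notch genes gave 1 higher, the glycosyltransferase Lfng (log2 fold change 1.06 ± 0.21, adjusted p = 0.00667), and 3 lower of 14. Beside Notch3 these were Dtx4 and Notch2, whose calls did not hold. Dtx4 had an adjusted p of 0.0962 without bulge library 2, 0.0858 without bulge library 3, 0.0906 without LRC library 1 and 0.0789 without LRC library 3. Notch2 had 0.119 without bulge library 1, 0.0851 without bulge library 2, 0.0715 without bulge library 3, 0.0849 without LRC library 1, 0.0962 without LRC library 2, 0.0918 without LRC library 3 and 0.0608 without nLRC library 2. The lower count was 1 without bulge library 2, bulge library 3, LRC library 1 or LRC library 3. Notch1, Jag1 and Hes1 did not pass the test (log2 fold changes -0.27 ± 0.18, -0.03 ± 0.16 and -0.41 ± 0.26).

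Mitosis genes were lower in bulge libraries. Of 30 genes on the list, 30 passed the filter on low counts; 0 of these were higher and 26 lower in bulge libraries, with a median log2 fold change of -1.77. Mki67, present in dividing cells, had 114, 84.3 and 58.4 CPM in the bulge libraries, against 678, 348 and 499 CPM in the LRC libraries (log2 fold change -2.57 ± 0.29, adjusted p = 0.000213). Cenpf (log2 fold change -2.62 ± 0.42, adjusted p = 0.00178) and Cenpe (-2.27 ± 0.42, adjusted p = 0.00421), of the kinetochore, fell. So did Kif11 (-2.02 ± 0.34, adjusted p = 0.00268), a spindle motor. Top2a (log2 fold change -1.72 ± 0.36, adjusted p = 0.00778), a topoisomerase, and Cdk1 (-1.79 ± 0.36, adjusted p = 0.00698), the mitotic kinase, fell too. Summed over 30 genes the level was 629.7, 381 and 311 CPM in the bulge libraries, against 2563, 1063 and 1658 CPM in the LRC libraries. LRC library 1 had the highest sum and LRC library 2 the lowest of the LRC group, still above every bulge library. The count of lower genes was 16 without bulge library 2, and 2 with only libraries numbered 1 and 2 in the fit. The nLRC libraries, from the cells called fast-cycling, held 1153, 866 and 1001 CPM, and LRC against nLRC had 4 mitosis genes higher and 0 lower, beside 3.12% and 1.48% of all genes. With the replicate number as a block 17 were higher and 0 lower, beside 8.1% and 5.61% of all genes. The LRC libraries are the slow-cycling ones by their label, and their mitosis sum was higher than that of the nLRC library of the same number in 3 of 3 pairs.

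The calls among DNA replication genes were falls, and most genes of the list did not pass the test. Of 30 genes on the list, 30 passed the filter on low counts; 0 of these were higher and 13 lower in bulge libraries, with a median log2 fold change of -0.78. Pola1, of DNA polymerase alpha, was the clearest (log2 fold change -1.36 ± 0.17, adjusted p = 0.000461). The count was 1 without bulge library 3, and 2 without bulge library 2 or LRC library 1, and 4 without LRC library 3. Pcna did not pass the test (-0.47 ± 0.17). The list of CDK inhibitors and pocket proteins also holds D-type cyclins, Btg2 and Gas1, and gave 4 higher and 3 lower of 14 tested. Among these calls only Cdkn1b and Cdkn2c code for CDK inhibitors, and none for a pocket protein. Btg2, an antiproliferative gene, rose, with 73.8, 68 and 35.7 CPM in the bulge libraries, against 11.7, 12.9 and 8.42 CPM in the LRC libraries (log2 fold change 2.43 ± 0.38, adjusted p = 0.00162). Ccnd3 (log2 fold change 1.39 ± 0.21, adjusted p = 0.0015) and Gas1 rose. Ccnd1 (log2 fold change -0.91 ± 0.16, adjusted p = 0.00358), Ccnd2 (-0.89 ± 0.18, adjusted p = 0.00702) and Cdkn2c (-1.46 ± 0.31, adjusted p = 0.0083) fell. Cdkn1b, coding for p27, was called higher (log2 fold change 0.58 ± 0.17, adjusted p = 0.036), with an adjusted p of 0.132 without LRC library 2, 0.138 without LRC library 3, 0.052 without nLRC library 1, 0.0539 without nLRC library 2, 0.0582 without nLRC library 3, 0.147 without bulge library 1 and 0.0805 without bulge library 2. Cdkn1a, coding for p21, did not pass the test (-0.46 ± 0.28). Quiescence transcription factors had 3 of 14 called, Foxo1, Foxo3 and Klf2, all higher. That is 21.4%, beside 19.1% of all genes called in either direction and 10.1% called higher. The higher count was 0 without bulge library 1 or LRC library 3, and 1 without LRC library 1. Foxo1 had an adjusted p of 0.0826 without bulge library 1, 0.0639 without bulge library 3, 0.0595 without LRC library 1 and 0.0864 without LRC library 3. Foxo3 had 0.0637 without bulge library 1, 0.0515 without LRC library 2 and 0.069 without LRC library 3. Klf2 had 0.0867 without bulge library 1, 0.0576 without LRC library 1 and 0.0792 without LRC library 3.

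**Figure D5:**
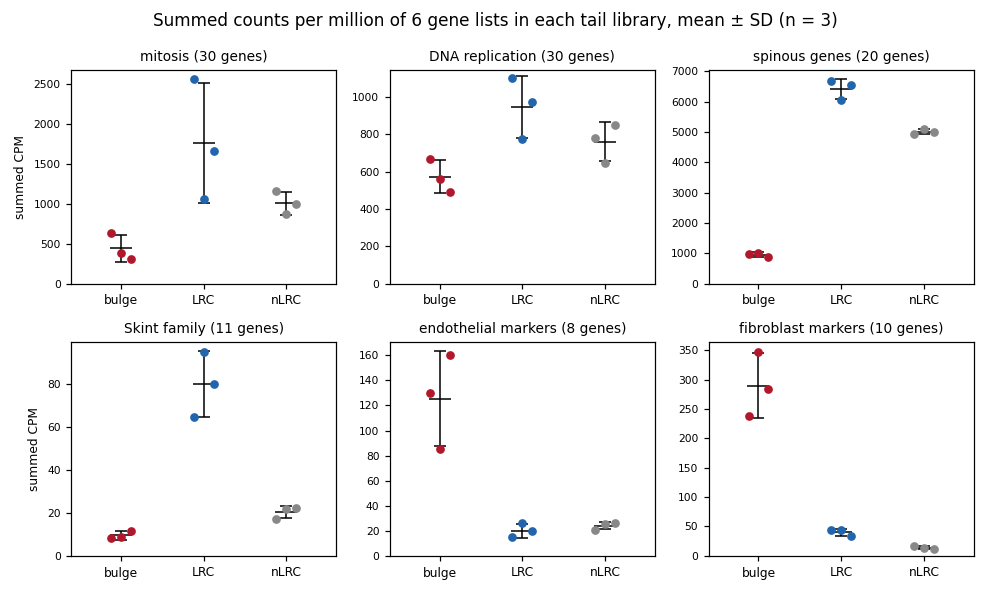
Summed CPM (vertical axes, linear from 0) of 6 gene lists in the 3 bulge, 3 LRC and 3 nLRC libraries of the tail, as points with mean and SD. Mitosis, spinous and Skint sums are lower in every bulge than in every LRC library, and endothelial and fibroblast sums are higher, while LRC library 1 has the highest mitosis sum.

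Basement membrane and adhesion genes were mostly higher. Of 25 genes on the list, 24 passed the filter on low counts; 13 of these were higher and 3 lower in bulge libraries, with a median log2 fold change of 0.68. Lamb3 (log2 fold change 1.29 ± 0.15, adjusted p = 0.000228) and Lama5 (0.87 ± 0.12, adjusted p = 0.000655), laminin chains, rose. Itga3 (log2 fold change 0.84 ± 0.14, adjusted p = 0.00258), an integrin that binds laminins, and Bcam (1.16 ± 0.18, adjusted p = 0.00137) rose too. Frem2 (log2 fold change -1.82 ± 0.15, adjusted p = 3.59e-05) and Fras1 (log2 fold change -2.77 ± 0.31, adjusted p = 0.000211), of the Fraser complex that anchors epidermis in development, fell. The higher count was 7 without LRC library 1 or LRC library 3. Trp63, the p63 factor of basal cells, did not pass the test (log2 fold change 0.10 ± 0.22, adjusted p = 0.793). Axon guidance and adhesion genes gave 9 higher and 5 lower of 27. Plxna2 (log2 fold change 1.86 ± 0.19, adjusted p = 0.000144) and Plxnd1 (2.56 ± 0.32, adjusted p = 0.000416), semaphorin receptors, rose with Sema3e. Ntn4 (log2 fold change 3.08 ± 0.33, adjusted p = 0.00016), a netrin, and Cdh3 (0.77 ± 0.13, adjusted p = 0.00278), P-cadherin, rose too. Epha4 (log2 fold change -3.43 ± 0.27, adjusted p = 2.41e-05) and Ephb2 (-3.09 ± 0.48, adjusted p = 0.00153), Eph receptors, and Robo1 (-2.23 ± 0.34, adjusted p = 0.00131) fell.

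Genes of tail scale patterning gave 2 higher and 2 lower of 11. Edaradd, the adaptor of the EDA receptor, fell (log2 fold change -2.42 ± 0.24, adjusted p = 0.000115), as did Dlx1, whose call was lost with an adjusted p of 0.107 without bulge library 1, 0.104 without bulge library 2, 0.0506 without LRC library 1 and 0.1 without LRC library 3. Krt90 and Dlx5 (log2 fold change 0.81 ± 0.16, adjusted p = 0.006) were higher. Krt36, a keratin of the tail scale, had 4.21, 32.5 and 4.43 CPM in the bulge libraries, against 23.3, 59.7 and 18.6 CPM in the LRC libraries and did not pass the test (adjusted p = 0.257). Krt84, another, had 5.76, 53.4 and 7.64 CPM in the bulge libraries, against 38.1, 129 and 35 CPM in the LRC libraries and did not pass it either (adjusted p = 0.21). The lower count of the list was 1 without bulge library 1, LRC library 1 or LRC library 3. In nLRC libraries the values were higher, with 261, 357 and 271 CPM for Krt36 and 523, 985 and 576 CPM for Krt84.

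Metabolic and stress lists are given beside the 19.1% of all genes called. Oxidative phosphorylation had 0 of 24 genes called by edgeR and 0 by DESeq2, with 1 at an unadjusted p under 0.05, while limma called 8 lower on log2(TPM + 1) and 2 after rescaling the TPM. Glycolysis had 5 higher and 1 lower of 24, and cholesterol synthesis 1 higher and 2 lower of 23. Pfkp (log2 fold change 1.03 ± 0.17, adjusted p = 0.00249) and Pfkm (0.98 ± 0.15, adjusted p = 0.0016), phosphofructokinases, and Ndrg1 (1.09 ± 0.23, adjusted p = 0.0091) were higher and Egln3 (-1.33 ± 0.20, adjusted p = 0.00137), a prolyl hydroxylase, lower. Hmgcs1 (log2 fold change -1.22 ± 0.19, adjusted p = 0.0014), of sterol synthesis, was lower and Dhcr7 (1.03 ± 0.21, adjusted p = 0.00637) higher. AP-1 and Egr genes gave 2 higher, Zfp36 (log2 fold change 1.52 ± 0.31, adjusted p = 0.007) and Ier2, and 1 lower, Egr2, with 11.9, 6.37 and 6.42 CPM in the bulge libraries, against 59, 14.8 and 36.2 CPM in the LRC libraries (log2 fold change -2.14 ± 0.45, adjusted p = 0.00857). The call of Ier2 was lost with an adjusted p of 0.0696 without bulge library 1, 0.139 without bulge library 2, 0.0833 without LRC library 1 and 0.131 without LRC library 3. Jun (1.0 ± 0.40), Fos (1.5 ± 0.66) and Egr1 (1.41 ± 0.46) did not pass the test. Interferon response genes gave 2 higher and 0 lower of 7, Irf7 and Usp18, and 0 without bulge library 1 or LRC library 3, and 1 without bulge library 3 or LRC library 1. MHC class I genes gave 2 higher and 0 lower of 14, Tap2 (log2 fold change 1.20 ± 0.26, adjusted p = 0.0104) and Tap1 (1.03 ± 0.23, adjusted p = 0.0117), and 1 without LRC library 3, and 4 without bulge library 3. The higher count of glycolysis genes was 3 without bulge library 1, bulge library 2, LRC library 1 or LRC library 3, and the lower count 2 without bulge library 2. That of lower cholesterol synthesis genes was 1 without bulge library 3 or LRC library 1, and that of higher AP-1 and Egr genes 1 without bulge library 1, bulge library 2, LRC library 1 or LRC library 3, and 5 without LRC library 2 or nLRC library 2.

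Markers of other cell types were read in the same way. Of 8 melanocyte markers 3 were tested, with Mitf higher (log2 fold change 2.15 ± 0.34, adjusted p = 0.00175) and Dct (1.24 ± 0.49) and Pmel (-0.05 ± 0.33) not past the test. The others failed the filter. Tyrp1 had 9, 9 and 5 reads in the bulge libraries, against 17, 1 and 1 in the LRC libraries. Kit had 12, 1 and 5 reads against 7, 28 and 10, and Sox10 4, 2 and 5 against 1, 4 and 9. Tyr had 0, 4 and 0 reads against 1, 9 and 3, and Mlana 3, 3 and 2 against 1, 4 and 1. None of 10 immune markers passed the filter, and Ptprc, the leukocyte antigen, had 0, 0 and 2 reads in the bulge libraries, against 0, 29 and 7 in the LRC libraries. LRC library 2, which held 29 of these reads, had a read in more genes (27652) than any other tail library. Sebocyte markers had 2 lower and 0 higher of 11, Acsbg1 (log2 fold change -2.30 ± 0.21, adjusted p = 6.49e-05) and Mgst1, whose adjusted p was 0.0796 without bulge library 2, 0.0557 without bulge library 3 and 0.0507 without LRC library 3, and the lower count was 1 without bulge library 2, bulge library 3 or LRC library 3, and 4 without bulge library 1. Smooth muscle and nerve markers had Acta2 (log2 fold change 3.08 ± 0.66, adjusted p = 0.00924) and Tagln (1.55 ± 0.29, adjusted p = 0.00493) higher and Mbp (-3.85 ± 0.34, adjusted p = 4.89e-05) lower of 8, and dermal papilla markers 1 of 4 higher, Ptch1, which epithelial cells also express, and 2 without bulge library 2, LRC library 1, LRC library 2, nLRC library 1, nLRC library 2 or nLRC library 3. Corin and Prom1, of the papilla, did not pass the test (-0.79 ± 0.77 and -1.69 ± 1.01).

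By level per transcript length, the called rises included S100a6, with 479 ± 27.2 TPM in bulge and 152 ± 13.3 TPM in LRC libraries, Col17a1, with 1229 ± 299 TPM in bulge and 908 ± 166 TPM in LRC libraries, and App, with 641 ± 112 TPM in bulge and 395 ± 28.3 TPM in LRC libraries. The falls included Lgals7, a galectin, with 315 ± 48.5 TPM in bulge and 796 ± 27.9 TPM in LRC libraries, and the histone gene Hist2h2bb, with 280.3 ± 14.6 TPM in bulge and 961 ± 238 TPM in LRC libraries, whose reads near-identical copies may share. Perp, a desmosomal p63 target, had 877 ± 228 TPM in bulge and 1574 ± 38.1 TPM in LRC libraries, but its call held in only 1 of the 9 fits that left out a library, that without nLRC library 1, with an adjusted p of 0.0656 without bulge library 1, 0.0981 without bulge library 2, 0.0821 without bulge library 3, 0.14 without LRC library 1, 0.0602 without LRC library 2, 0.104 without LRC library 3, 0.0547 without nLRC library 2 and 0.0511 without nLRC library 3. The small nuclear RNA Rnu12 had 1326 ± 433 TPM in bulge and 756 ± 232 TPM in LRC libraries, and its adjusted p was 0.12 without bulge library 2, 0.101 without LRC library 1, 0.101 without LRC library 3 and 0.0507 without nLRC library 1.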

How the data were processed

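Sorted cells were sequenced as total RNA with a stranded low-input kit (SMARTer Stranded Total RNA-Seq v2, Pico Input), per the labels' protocols. Each library has its own table from the authors, which gives every gene a count, a TPM and an RPKM. The count column is named total gene reads, per the file headers. Their values show that they hold exon and intron reads, while the deposited TPM and RPKM rest on exon reads, and RPKM served here only to estimate intron shares. The genome build is mm10, per the submitters' processing notes, and positions come from GENCODE M21 (GRCm38), to which 47102 of 49585 gene names matched. No source used here names the aligner, the counting program or the handling of strand, and overlapping, antisense and near-identical genes are uncertain.

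The deposited counts of the 9 tail libraries were fitted together, so that bulge, LRC and nLRC share 1 estimate of the spread, with the quasi-likelihood test of edgeR 4.0.16 (R 4.3.3) on TMM-scaled library sizes. Genes were kept by filterByExpr (minimum count 10, minimum total 15). A gene can pass this filter on the libraries of 1 group alone, and its direction is then largely set by the filter. CPM are counts scaled by library size and TMM factor, and errors of log2 fold changes are standard errors. A gene with 1 to 3 reads in a group has a pooled ratio with an exact 95% counting interval, which covers counting error only. On simulated counts, with 14603 genes tested, the test recovered 95% of log2 changes of 2 and 60% of changes of 1, with 6.63% false among its calls. Changes were put into a small part of the genes only, all above a minimum mean CPM, in libraries drawn independently. The recovery rates do not cover genes at lower levels, and the simulation held no differences in library quality. Alternatives used DESeq2 1.42.0 and limma 3.58.1 on log2(TPM + 1), with genes at a TPM of at least 1 in 3 libraries. No pair of libraries of the same group agreed within sampling noise, and pairs across groups were not checked. Same-numbered LRC and nLRC libraries deviated together from their group means (correlations 0.534, 0.585 and 0.326), as did bulge and nLRC libraries (0.404, 0.125 and 0.183), so the numbers were taken to pair nLRC with the other groups, and counts with the replicate number as a block stand beside those without it where they differ by over 1.5 times. The labels do not say what a number marks. In every tail group the authors' names of the libraries numbered 1 and 2 carry the code TAR_059, and those numbered 3 carry TAR_065. What these codes stand for is not given, and their part in the results was not tested.

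Genes were named by a rule: the 15 largest rises and falls among called genes that average 3 or more in log2 CPM and whose groups do not overlap, without predicted, mitochondrial and ribosomal protein genes; the up to 6 members of each list with the smallest p-values; all tested members of the bulge transcription factor, bulge surface and matrix and interfollicular basal lists; and the 10 called genes with the largest TPM difference each way. The text prints some of these 255 genes, and some results are not reported here. Further list members were named after their values were seen: Axin2, Bcam, Bmp4, Bmp7, Bmpr1a, Bmpr1b, Boc, Cdh3, Cdk1, Cdkn1a, Cdkn1b, Ephb2, Fgf18, Flg, Fos, Fzd3, Fzd7, Gata6, Grhl3, Hes1, Id4, Il31ra, Itga3, Itga6, Jag1, Jun, Krt24, Krt36, Krt5, Krt84, Lef1, Lgr6, Lrig1, Lrp6, Nog, Notch1, Pcna, Skint11, Skint5, Skint6, Smad7, Smad9, Smo, Tgm5, Top2a, Trp63, Wif1, Wnt3a and Wnt7b. The members and the 37 lists (519 of 624 genes tested, 236 called) were chosen with earlier results of these data known.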

Additional observations from a re-analysis of the deposited data

How the results depend on the processing

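None of the 186 genes named by the rule that passed the test changed direction under the alternatives run, while 18 of the 69 that did not pass it changed sign under at least 1 of them. Of the 186, 149 passed in all 9 fits that left out 1 tail library. With 1 library left out, called genes numbered 1823 to 2808, those higher 972 to 1518 and those lower 851 to 1290, against 2867, 1518 and 1349. Called list genes numbered 183 to 246 (90 to 128 higher, 81 to 119 lower), against 236 (125 and 111). Without LRC library 3 the 3 counts over all genes were 1823, 972 and 851, and without bulge library 2 the lower count was 864. With only libraries numbered 1 and 2 in the fit they were 957, 562 and 395, and 121, 69 and 52 among list genes. A test against a 2-fold change (glmTreat) gave 792, 459 and 333, and 105, 55 and 50 among list genes. Limma called 813 genes higher on log2(TPM + 1), 758 on log2(TPM + 0.1) and 903 without a filter on low TPM, and 1590 after rescaling the TPM, a choice made after seeing the data. The median log2 difference of all genes in these 4 fits was -0.24, -0.29, -0.08 and -0.01. Counts under median-of-ratios scaling (2870), DESeq2 (3456), no filter on low counts (3430), a fit of the 6 libraries alone (2621) and library sizes without ribosomal RNA-like features (2855) lay within 1.5 times the main count. Same-numbered bulge and LRC libraries deviated from their group means with correlations of 0.426, -0.0436 and 0.194. Those of bulge and nLRC libraries, which were taken as paired, were not much higher (0.404, 0.125 and 0.183), and sex-linked reads matched by number in all groups. The main fit does not use a pairing of bulge with LRC libraries, although the numbers may pair them. With the replicate number as a block 4138 genes were called, 2184 higher and 1954 lower. Bulge library 3, the shallowest with 8421582 reads, limits what low genes can show. The cause of these shifts was not tested.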
